A study of Homo sapiens with 7 samples.

Results

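The genes described here are 10 regulators of blood and endothelial cells, KDR, FLT1, CDH5, ETV2, TAL1, LMO2, ERG, RUNX1, SOX18 and NOTCH1, and the measurement is DNA methylation at the CpGs of their loci. The 10 genes were chosen with earlier results of these data known. Their CpGs were then taken by position from a fixed span of the hg19 genome for each gene, with no measured value used at that step. These spans held 2862 of the 2587280 CpGs read in any library, and 2112 of the 1734462 CpGs read at least 10 times in each of the 7 libraries. Grouped into 1 kb tiles with 5 or more such CpGs, they gave 90 of 85087 tiles. NOTCH1 holds 47 of the 90 tiles, so counts over all 10 genes lean on it.

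Methylation was read by enhanced reduced representation bisulfite sequencing, in which CpG-rich fragments are treated with bisulfite, which turns unmethylated cytosine into a base read as T. The line used was HUES8, which is established and comes from human embryonic stem cells. The cells were either wild type (WT) or lacked TET1, TET2 and TET3 together (TKO). The TET enzymes oxidise 5-methylcytosine, a step towards its removal, and the design asks which sites depend on them while the cells are driven towards heart muscle. Both 5-methylcytosine and 5-hydroxymethylcytosine are read as C by this chemistry and were not told apart.

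WT stem cells (WT SC) and TKO stem cells (TKO SC) were undifferentiated cells at day 0. WT cardiac mesoderm (WT CME) and TKO cardiac mesoderm (TKO CME) were taken at day 3, after 6 µM of the Wnt pathway activator CHIR99021, which was withdrawn on day 2. WT and TKO cardiac progenitors (WT CP, TKO CP) were taken at day 8 and had also been given 5 µM of the Wnt antagonist IWP2 from day 3 to day 5. WT beating cardiomyocytes (WT CM) followed the same steps, with lactate medium from day 9. The series text places them at day 14 and their own description at day 15, and their source label names the mesoderm stage, so the stage rests on the title. There is no TKO counterpart, since TKO cells do not reach the beating stage according to the series text. The labels do not say whether the TKO cells are 1 clone. The descriptions of WT SC and WT CME carry a suffix, BS, that those of the other libraries lack, and its meaning is not given. Where levels are listed without stage names, WT is given in the order SC, CME, CP, CM and TKO in the order SC, CME, CP.

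Each group is 1 library. Fisher's exact test on reads therefore compares libraries, not conditions, and no difference could be set against replicate spread. Reads summed over listed cytosines ran from 120742115 to 213058905 per library, and the median reads per CpG of the 10 genes from 46 in WT SC to 106 in TKO CME. The mean level over all CpGs was 39.3% to 42.5% in the WT libraries and 44.3% to 46.8% in the TKO libraries, and over the CpGs of the 10 genes 38.7% to 42.1% and 42.6% to 44.9%. The share of C at mitochondrial CpGs, which measures cytosine left unconverted where mitochondrial DNA carries no methylation, was 1.504% in WT SC, 1.46% in WT CME and 0.139% to 0.397% in the other libraries. Levels under about 3% in WT SC and WT CME are of that order. The files hold neither expression nor sequence, so the knockout and the cell types were not checked.

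Blood and endothelial cells arise from mesoderm close to the cells that form the heart. ETV2, an ETS transcription factor, starts the shared programme, and TAL1 with its partner LMO2 directs cells towards blood. RUNX1 is needed for definitive blood stem cells to emerge from endothelium. ERG and SOX18 are transcription factors of endothelial cells, KDR and FLT1 are their receptors for vascular endothelial growth factor, NOTCH1 is a receptor that guides arterial fate, and CDH5 is the cadherin of their junctions. CpG-rich promoters are usually unmethylated whether or not the gene is active, and methylation there is linked to stable silencing.

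Promoter sequences from RefSeq (build GRCh38.p14, minus strand, 250 bases up to the start site) are shown for 3 genes: ERG, where TKO cells carried more methylation at the start itself, TAL1, where the level was above 5% in TKO progenitors alone, and KDR, where the window stayed near 0. Capitals mark the CpGs that were read in at least 1 library. The promoters were placed on the files by the spacing of their CpGs, not by converting coordinates. ERG lies at chr21:38660668-38660917, TAL1 at chr1:47232336-47232585 and KDR at chr4:55125596-55125845 of that build.
ERG: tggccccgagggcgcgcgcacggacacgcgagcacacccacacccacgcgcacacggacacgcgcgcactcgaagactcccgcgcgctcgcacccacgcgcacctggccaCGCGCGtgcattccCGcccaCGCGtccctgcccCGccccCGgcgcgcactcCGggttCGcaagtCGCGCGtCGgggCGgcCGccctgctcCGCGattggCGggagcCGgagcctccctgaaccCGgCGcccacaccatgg
TAL1: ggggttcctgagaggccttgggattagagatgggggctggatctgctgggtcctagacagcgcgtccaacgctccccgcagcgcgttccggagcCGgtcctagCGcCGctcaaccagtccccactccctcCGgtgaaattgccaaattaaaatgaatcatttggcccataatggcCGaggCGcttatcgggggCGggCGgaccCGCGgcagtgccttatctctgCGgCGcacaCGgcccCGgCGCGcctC
KDR: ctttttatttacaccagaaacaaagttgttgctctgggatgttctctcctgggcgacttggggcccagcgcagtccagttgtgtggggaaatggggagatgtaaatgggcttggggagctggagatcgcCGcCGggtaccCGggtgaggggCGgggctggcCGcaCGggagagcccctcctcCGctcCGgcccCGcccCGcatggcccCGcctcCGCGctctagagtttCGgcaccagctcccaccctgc
The ERG stretch has 44 CpGs, of which 22 were read. TAL1 has 24, of which 16 were read, and KDR has 17, of which 14 were read.

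Promoter windows of 300 bases, from 250 before to 50 after the start, could be placed for 6 of the 10 genes (ERG, FLT1, KDR, NOTCH1, RUNX1 and TAL1). A call here and below needs an adjusted p under 0.01 in Fisher's exact test and a gap of at least 25 percentage points. None of the 6 windows was called higher in TKO at any stage. Over all 10758 windows tested, 3.31% were called higher in TKO at SC, 3.21% at CME and 4.58% at CP. At shares this low, a lack of calls among 6 windows does not set these promoters apart from the rest. In FLT1, KDR, NOTCH1 and RUNX1 the window level was at most 1.31% in every library. Any start of these genes outside the placed window was not described as a promoter. For the ERG window the WT levels were 2.47%, 3.05%, 0.878% and 0.387% and the TKO levels 5.56%, 8.38% and 10.1%. For the TAL1 window they were 1.73%, 1.94%, 0.263% and 0.5898% in WT against 1.56%, 2.42% and 5.25% in TKO. In ERG all 3 TKO libraries lay above all 4 WT libraries, whereas in TAL1 they overlapped. The placement of ERG, KDR and TAL1 rests on the best match alone. A stricter rule, used at first, placed FLT1, NOTCH1 and RUNX1.

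Over whole gene spans SOX18 showed the widest gap between the genotypes. The mean level over the 210 CpGs of SOX18 was 10.8%, 11.9%, 6.83% and 7.32% in WT against 27.02%, 28.6% and 31.4% in TKO. The lowest TKO library thus lay above the highest WT library. The same held for the 95 CpGs of ETV2 (4.36% to 6.205% in WT, 9.48% to 10.1% in TKO), the 116 of TAL1 (13.5% to 15.5% in WT, 18.3% to 22.02% in TKO) and the 111 of ERG (29.4% to 33.6% in WT, 38.1% to 40.2% in TKO). The ERG difference at SC and CME depends on the weighting: by mean over CpGs it was 5.33 and 5.81 points, and with each read weighted equally -0.217 and -0.2504 points. At CP it was 10.7 and 17.6 points by these weightings. KDR (52 CpGs) was lower in WT CP (5.39%) and WT CM (4.38%) than in the other 5 libraries, which ranged from 9.57% to 11.8%. FLT1 (181 CpGs) ranged from 19.8% to 22.3%, LMO2 (133 CpGs) from 8.97% to 12.02% and RUNX1 (332 CpGs) from 24.1% to 25.95% over the 7 libraries, with the genotypes overlapping. CDH5 (40 CpGs) was methylated in all libraries, at 83.8% to 87.4%, but no promoter window was placed for it. NOTCH1 (842 CpGs) was at 69.6% to 74%. The levels of other spans also move with the weighting. With each read weighted equally, FLT1 ran from 6.899% to 15.9%, with TKO below WT at SC (8.797% against 14.4%) and CME (8.24% against 15.9%) and above it at CP (9.96% against 6.899%). LMO2 ran from 2.45% to 7.395% on that scale, with WT SC and WT CME the highest. All TKO libraries lay above all WT libraries under both weightings in SOX18, ETV2 and TAL1, and in KDR with equal weight per read alone.

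**Figure D1:**
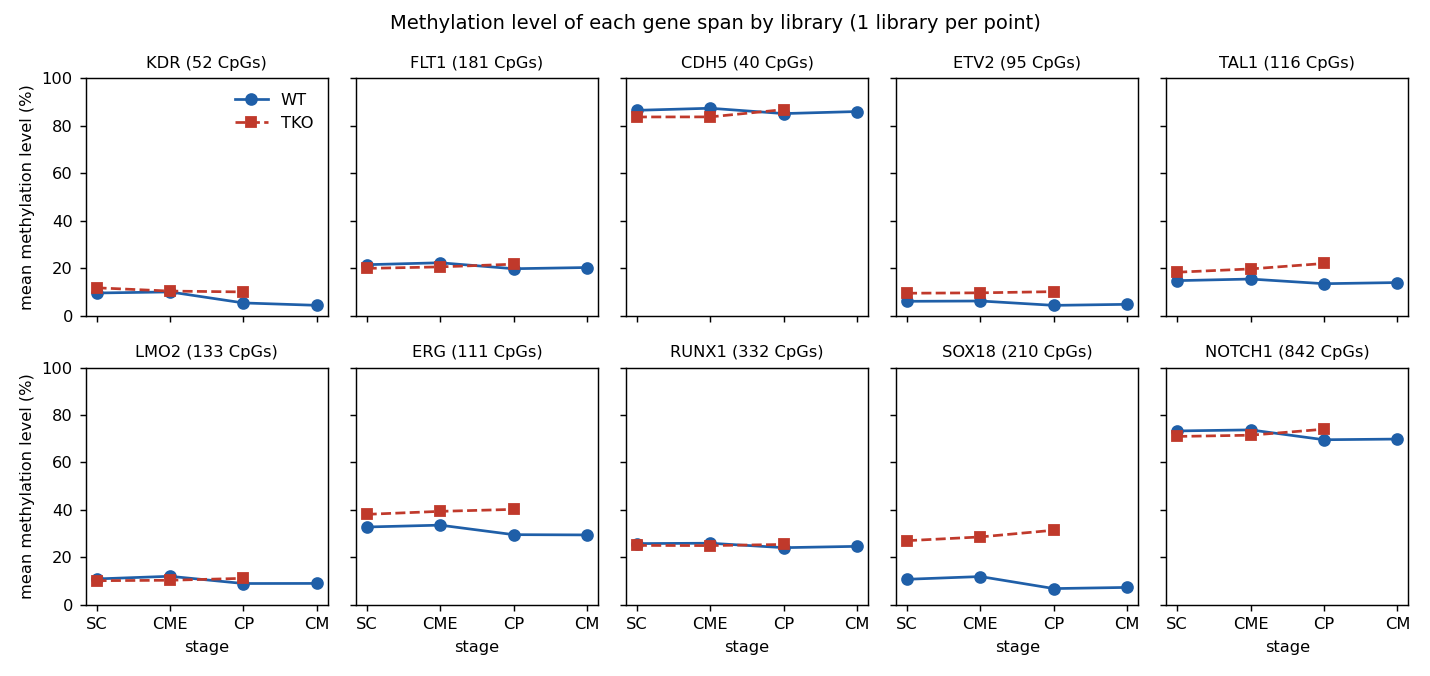
Mean methylation level (%, y axis) of each gene span in each library, over the CpGs with at least 10 reads in each of the 7 libraries, by stage (x axis), with WT as circles and TKO as squares. Each point is 1 library, so there are no error bars, and SOX18 shows the widest gap, with TKO at 27.02% to 31.4% and WT at 6.83% to 11.9%.

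In tiles, 3 of the 90 were called higher in TKO SC than in WT SC, against 6.26% of all tiles, and 0 were called lower, against 0.119%. In mesoderm the counts were again 3 higher (6.02% of all tiles) and 0 lower (0.0846%). In progenitors 9 were called higher (12.0% of all tiles) and 0 lower (0.0458%). The share of the 90 tiles called higher was 3.33% in stem cells and in mesoderm and 10% in progenitors, below the share of all tiles in each comparison. NOTCH1, with 47 of the 90, held 0, 0 and 4 of the called tiles, so the shortfall leans on that gene and need not hold for the others. The counts are small, and the shortfall itself was not tested. The median difference over the 90 tiles was -0.956, -1.001 and 2.45 points at the 3 stages, beside -0.929, -1.04 and 1.298 points over all tiles. By level in WT SC, 29 of the 90 were under 20%, 6 were at 20 to 80% and 55 were over 80%. Of the 29 low tiles 2 were called higher in TKO at each stage, while 10.2%, 10.1% and 13.1% of all such tiles were. The 4 called progenitor tiles among the 55 high ones stand beside 3.82% of all high tiles.

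**Figure D2:**
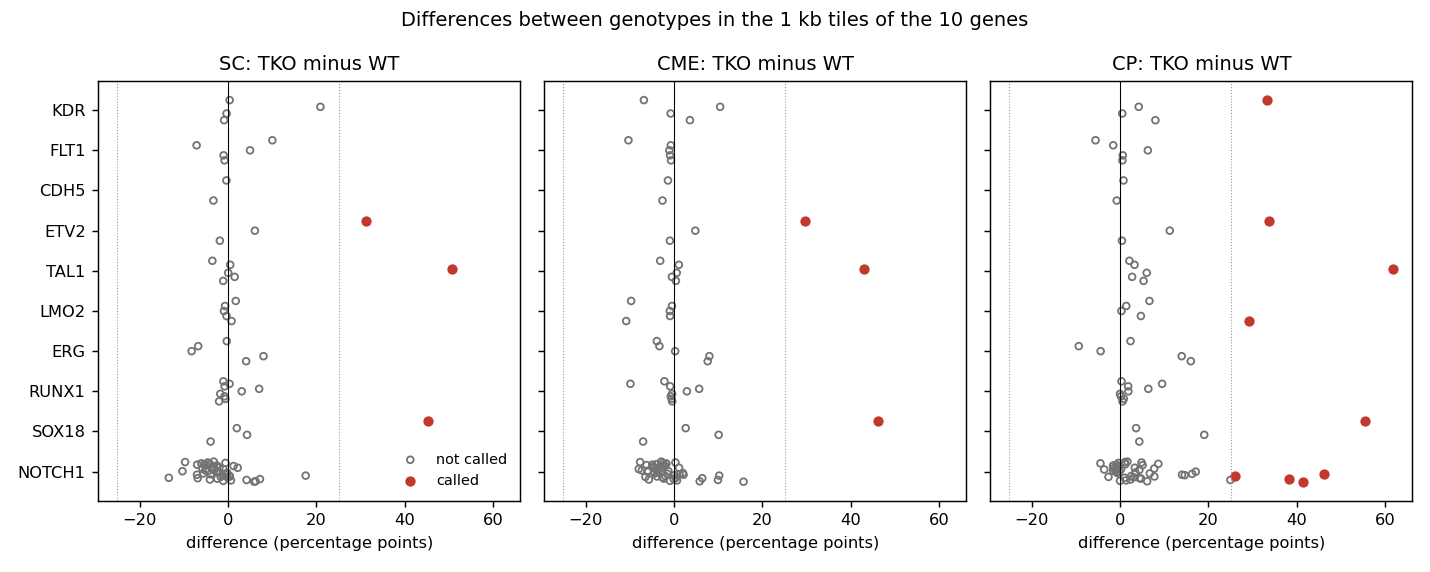
Difference in methylation level between TKO and WT (percentage points, x axis) for each of the 90 tiles, by gene (y axis) and stage (panels). Filled points are called tiles, dotted lines mark 25 points, and the called tiles number 3 at SC, 3 at CME and 9 at CP, all of them higher in TKO.

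The tiles called at all 3 stages were 1 each in SOX18, TAL1 and ETV2. Over all tiles 4645 (5.46%) were called higher at all 3 stages. In these 3 tiles the gap was present in stem cells. From SC to CP it widened in SOX18 by 10.3 points (adjusted p = 1.98e-26 by a z test on the reads), under the size for a call. In TAL1 the gap at CP exceeded that at SC by 11.1 points (adjusted p = 0.0587) and in ETV2 by 2.37 points (adjusted p = 0.705). The z test called 5 other tiles of the 90 as having a wider gap at CP (5.67% of all tiles) and 0 as having a narrower one (0.108%).

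SOX18, which shapes arterial and lymphatic vessels, held the longest run of CpGs with a TKO gain. The tile chr20:62679001-62680000, with 62 CpGs, stood at 4.98%, 8.35%, 2.09% and 2.56% in WT. In TKO it stood at 50.2%, 54.4% and 57.6% (95% Wilson interval 49.1% to 51.2% at SC). All TKO values lay above all WT values, by 45.2, 46.1 and 55.5 points at SC, CME and CP. Tests of single CpGs placed the edge of the difference. Over 32 successive called CpGs, from base 62679524 to 62679822, the WT levels were 6.704%, 11.6%, 2.51% and 3.85% against 82.2%, 85.99% and 89.8% in TKO. The next run of CpGs called in progenitors, at 62679873 to 62679908, was at 43.6%, 45.2% and 52.8% in TKO and at 1.75% to 8.64% in WT. Called runs went on to base 62680033. Over 8 CpGs from 62679975 to that base, TKO was at 23.3%, 39.0% and 50% and WT at 1.37% to 14.4%. The adjoining tile at chr20:62680001-62681000, with 107 CpGs, was at 0.601% to 3.18% in WT and 4.58% to 5.43% in TKO, so the TKO methylation fell off within the span.

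Another stretch of SOX18 differed by stage in WT. Over 6 CpGs at 62681220 to 62681276 the WT levels were 37.8% and 37.6% at SC and CME but 9.19% and 13.5% at CP and CM. TKO stayed at 73.7%, 72.9% and 70.3%. WT was below TKO at each stage, and in WT the 2 later libraries lay under the 2 earlier ones. In all, 47 of the 210 SOX18 CpGs were called higher in TKO at SC, 49 at CME and 65 at CP, or 30.95% in progenitors. Over all single CpGs tested the shares called higher were 5.77%, 5.90% and 10.3%.

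**Figure D3:**
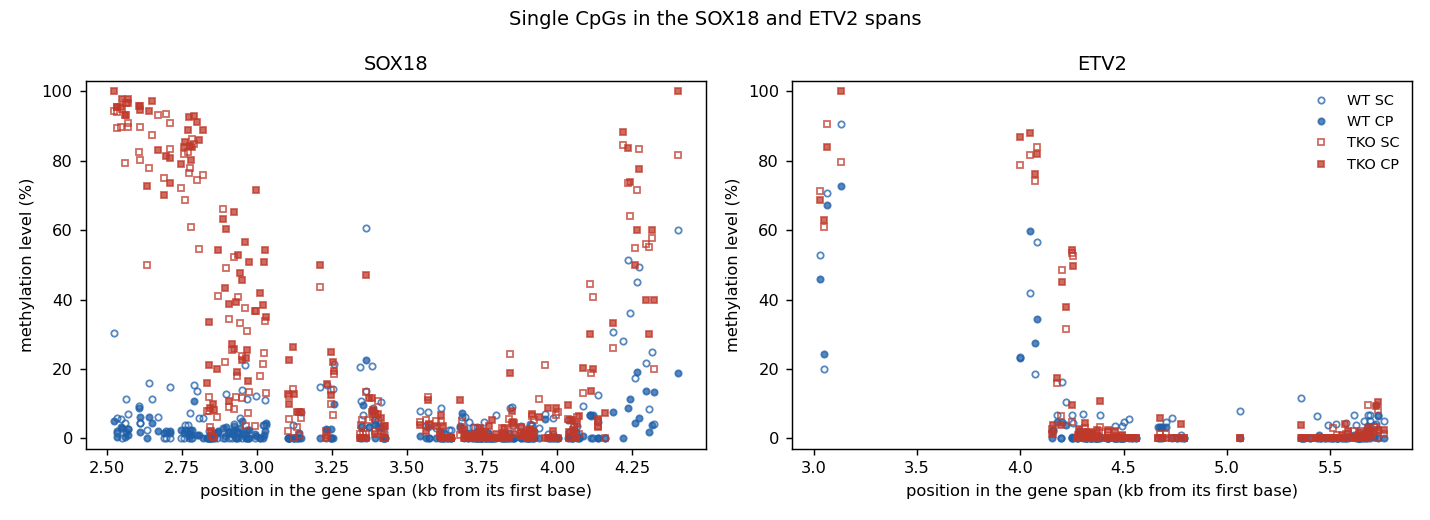
Methylation level (%, y axis) of each CpG along the SOX18 and ETV2 spans (x axis, kb from the first base of the span), in WT SC, WT CP, TKO SC and TKO CP. In SOX18 the TKO values are mostly over 70% at the left edge, where WT is low, and drop towards WT near 3 kb. ETV2 shows TKO gains beside CpGs that are near 0% in all 4 libraries.

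TAL1, the helix-loop-helix factor of blood specification, had 1 called tile, chr1:47694001-47695000, which lies 3007 to 4006 bases downstream of the placed start. WT levels were 7.34%, 17.4%, 15.8% and 12.7% and TKO levels 58.1%, 60.4% and 77.6%. The genotypes did not overlap, and TKO exceeded WT by 50.7, 42.95 and 61.8 points at the 3 stages. The tile has 6 CpGs and its TKO CP value rests on 125 reads summed over them (95% Wilson interval 69.5% to 84.02%). A run of 3 CpGs at 47690488 to 47690522, 7485 to 7519 bases downstream and outside any tile, was at 2.02% to 5.62% in WT and at 60.5%, 64.7% and 60.6% in TKO. The TAL1 tiles between these stretches and around the start, 4 in all, were at most 7.03% in every library. TAL1 CpGs called higher in TKO numbered 7, 9 and 9 of 116 at SC, CME and CP, or 6.03%, 7.76% and 7.76%, beside 5.77%, 5.90% and 10.3% of all CpGs.

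ETV2, which initiates the blood and endothelial programme in mesoderm, differed from SOX18 and TAL1 in that WT was partly methylated in its called tile. The tile chr19:36133001-36134000, with 5 CpGs, was at 44.1%, 43.8%, 42.8% and 47.02% in WT and at 75.4%, 73.5% and 76.4% in TKO. WT levels spanned 42.8% to 47.02% over the stages, and TKO was higher by 31.3, 29.7 and 33.7 points. Single CpGs carried the gain into the next tile. At 36133998 to 36134084 the level over 4 CpGs was 33.7% to 41.7% in WT and 79.8% to 84.6% in TKO. At 36134204 to 36134250, over 3 CpGs called in progenitors, it was 2.604% to 11.8% in WT and 43.4% to 46.8% in TKO. The tile chr19:36135001-36136000, with 38 CpGs, was at 0.562% to 3.104% in all 7 libraries.

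These 3 tiles were also called when the 6 libraries of SC, CME and CP were fitted together with limma. Genotype and stage were the terms, with 2 residual degrees of freedom. The p-values of the fit measure spread of the genotype difference over stages, not over replicate cultures. For each tile limma draws that spread towards the spread over all tiles. TKO exceeded WT by a mean of 48.9 points in SOX18 (limma adjusted p = 0.0002297), 51.8 points in TAL1 (limma adjusted p = 0.000352) and 31.5 points in ETV2 (limma adjusted p = 0.00124), and was higher at 3 of 3 stages in each. None of the remaining tiles of the 90 was called higher in that fit, which called 6.04% of all tiles higher. A call there needs the same size in the mean over the 3 stages. The 3 called tiles already had that size at each stage in the same libraries, so the fit is not a separate check of them. In the 6 tiles called in progenitors alone, the mean ran from 6.39 points (LMO2) to 21.02 points (NOTCH1), under that size. The fit therefore could not call them.

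The other 6 tiles called in progenitors, in KDR, LMO2 and NOTCH1, were at 61.8% or more in WT SC, and in each WT CP lay below WT SC and WT CME. From WT CME to WT CP, 4 of the 90 tiles were called lower, against 3.38% of all tiles, and 0 higher, against 0.0294%. They were 1 in KDR, 1 in LMO2 and 2 in NOTCH1. From WT SC to WT CM, 4 were called lower, again 1 in KDR, 1 in LMO2 and 2 in NOTCH1, against 2.81% of all tiles, and 0 higher, against 0.126%. None of the 90 tiles was called in the remaining stage comparisons, where few tiles were called anywhere. Over all tiles, 0.0282% higher and 0.0118% lower were called from WT SC to WT CME, and 0.0306% higher and 0.0223% lower from WT CP to WT CM. In TKO the shares were 0.0223% higher and 0.0188% lower from SC to CME, and 0.772% higher and 0.0599% lower from CME to CP. WT CME and WT CP differ in the BS suffix and in the mitochondrial share of C as well as in stage, and these cannot be told apart.

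KDR, the main VEGF receptor of endothelial cells, had its called tile inside the span at chr4:55946001-55947000, 44762 to 45761 bases downstream of the start, with 5 CpGs. The WT levels were 87.5%, 90.8%, 55.9% and 44.7%, and the TKO levels 87.9%, 84.03% and 89.2%. WT CP and WT CM were the low libraries, and TKO CP lay close to both SC libraries. TKO exceeded WT by 33.3 points at CP and by 0.368 points at SC. Within the tile, 3 CpGs at 55946138 to 55946228 held 80.7% and 86.9% in WT at SC and CME, then 31% and 22.8% at CP and CM, with 80% to 83.8% in TKO.

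A further KDR tile ran the other way over the TKO stages. At chr4:55990001-55991000, 762 to 1761 bases downstream of the start and with 6 CpGs, TKO SC was at 23.2% (95% Wilson interval 18.4% to 28.8%), TKO CME at 13.1% and TKO CP at 5.02%, while WT was at 0.279% to 2.68%. The difference of 20.9 points at SC was below the size needed for a call, with an adjusted p of 1.63e-19 in Fisher's exact test. The genotype difference at CP minus that at SC was -16.7 points, also under the size needed. The tile with the start itself, chr4:55991001-55992000, was at most 1.302% in every library.

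LMO2, the adaptor protein that joins TAL1 to GATA factors, was also lowest in WT CM and WT CP. The tile chr11:33914001-33915000, with 5 CpGs, gave 92.5%, 96.8%, 60.8% and 44.9% in WT and 93.3%, 85.96% and 90% in TKO. WT CP and WT CM lay below the other 5 libraries, and TKO exceeded WT by 29.2 points at CP. The WT CM value rests on 98 reads summed over the CpGs (95% Wilson interval 35.4% to 54.8%). The 3 CpG-rich LMO2 tiles between bases 33890001 and 33893000 were at most 5.2% in every library.

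NOTCH1, the locus with the most tiles here, was methylated over most of its body. In TKO CP 4 of its 47 tiles were called higher, or 8.51%, beside 12.0% of all tiles. The largest difference was at chr9:139421001-139422000, 18500 to 19499 bases downstream of the start, with 15 CpGs. In WT it was at 92.6%, 90.9%, 48.4% and 61.2% (95% Wilson interval 44.6% to 52.1% at CP), and in TKO at 88.7%, 92.1% and 94.5%. WT CP and WT CM were again the low libraries, and TKO exceeded WT by 46.1 points at CP. Within it, 9 successive CpGs called in progenitors at 139421158 to 139421307 were at 45.7% in WT CP and 94.4% in TKO CP. The neighbouring tile at 139422001 was called lower from WT SC to WT CM, at 96% and then 69.9%. The tile at 139420001, at 67.9% in WT CM and 88.7% in WT SC, fell short of the size for a call.

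The tile chr9:139434001-139435000, with 9 CpGs, was at 80.2%, 87.4%, 53.1% and 59.3% in WT and at 87.4%, 87.3% and 91.3% in TKO. Upstream of the start, chr9:139442001-139443000, with 6 CpGs, was at 75.5%, 66.03%, 50.2% and 50.9% in WT and at 81.4%, 81.7% and 91.6% in TKO. The fourth, chr9:139424001-139425000, was partly methylated in all WT libraries (55.4% to 69.8%) and at 79.4% to 81.3% in TKO, which lay above WT at each stage. TKO exceeded WT by 25.9 points there at CP, just past the size for a call. The tile with the NOTCH1 start was at most 1.296% in every library. Away from the start, 3 CpGs at 139441506 to 139441522, 1006 to 1022 bases upstream, were at 12.5% to 27.1% in WT and at 68.8% to 84.8% in TKO, on 44 to 158 summed reads.

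**Figure D4:**
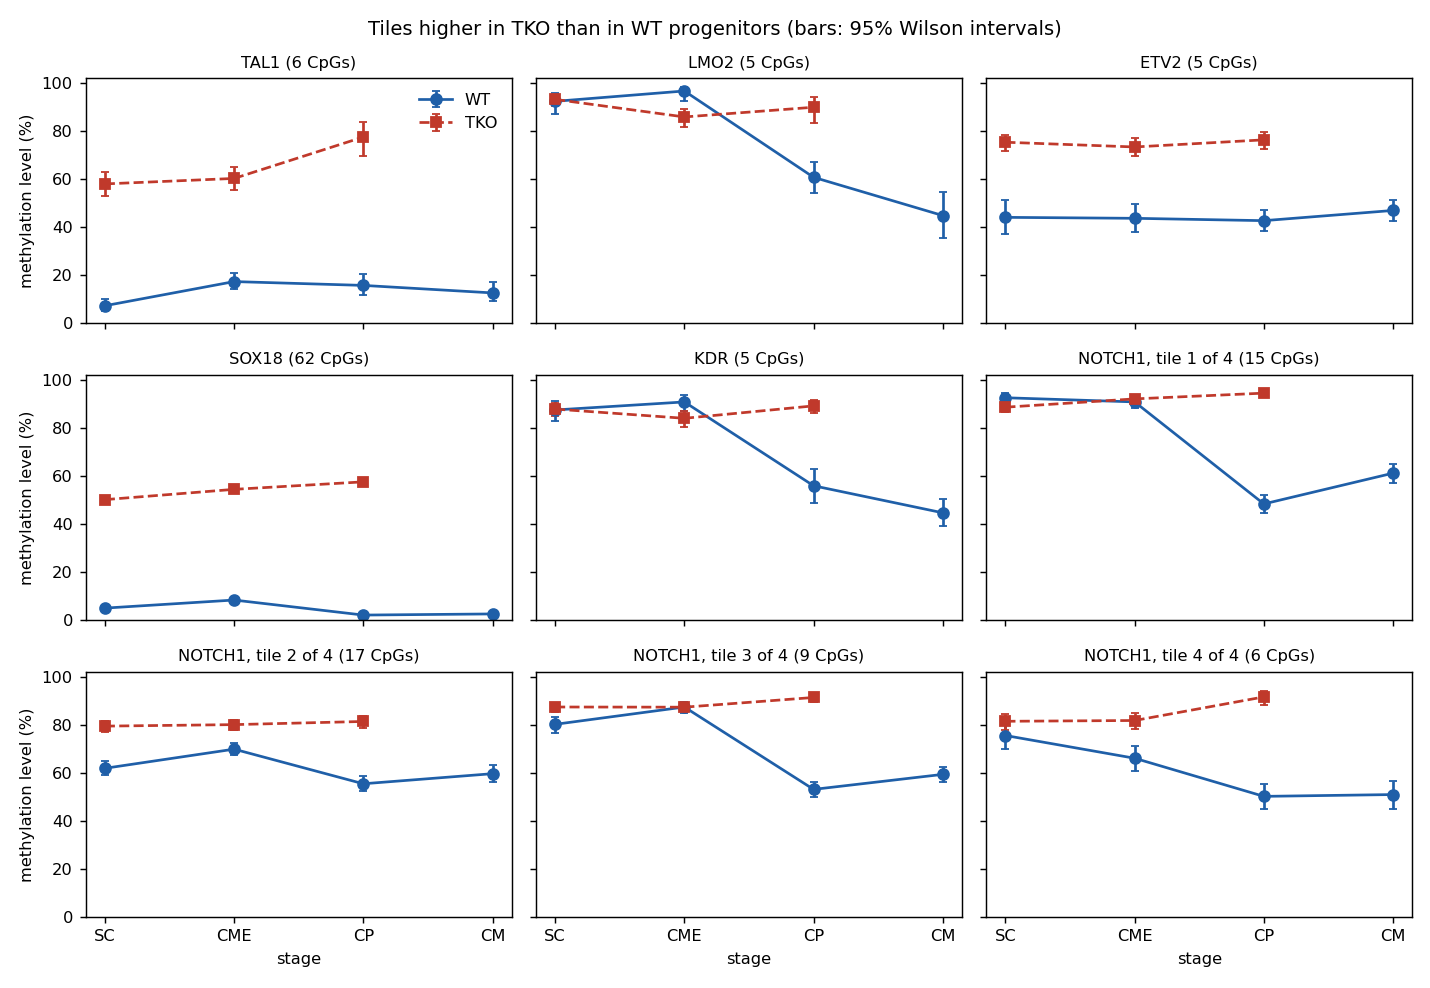
Methylation level (%, y axis) by stage (x axis) in the 9 tiles called higher in TKO than in WT progenitors, with WT as circles and TKO as squares. Bars are 95% Wilson intervals of the summed reads, which cover counting error only. TKO is above WT at all stages in the TAL1, ETV2 and SOX18 tiles, while in the KDR and LMO2 tiles the WT level is lower in CP and CM.

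ERG, an ETS factor that maintains endothelial identity, had no called tile, yet single CpGs at its start differed. The start tile chr21:40032001-40033000, with 49 CpGs, was at 3.21%, 3.93%, 1.24% and 1.19% in WT and at 11.2%, 11.9% and 15.2% in TKO. Within it, 6 CpGs at 40032328 to 40032396, 195 to 263 bases downstream of the start, gave 5.69%, 8.23%, 4.64% and 2.61% in WT and 52.2%, 51.2% and 56.8% in TKO. In the sequence printed above, 2 CpGs 16 to 34 bases upstream of the start gave 9.09%, 11.5%, 2.4% and 1.89% in WT and 29.2%, 37.2% and 47.4% in TKO. Each time all TKO libraries lay above all WT libraries. The next tile upstream, chr21:40033001-40034000, with 23 CpGs, was at 4.22%, 5.23%, 0.597% and 1.38% in WT and at 8.32%, 12.8% and 16.6% in TKO, again with all TKO libraries above all WT libraries. Of 111 ERG CpGs, 7, 11 and 15 were called higher in TKO at SC, CME and CP, which is 6.31%, 9.91% and 13.5%, beside 5.77%, 5.90% and 10.3% of all CpGs.

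**Figure D5:**
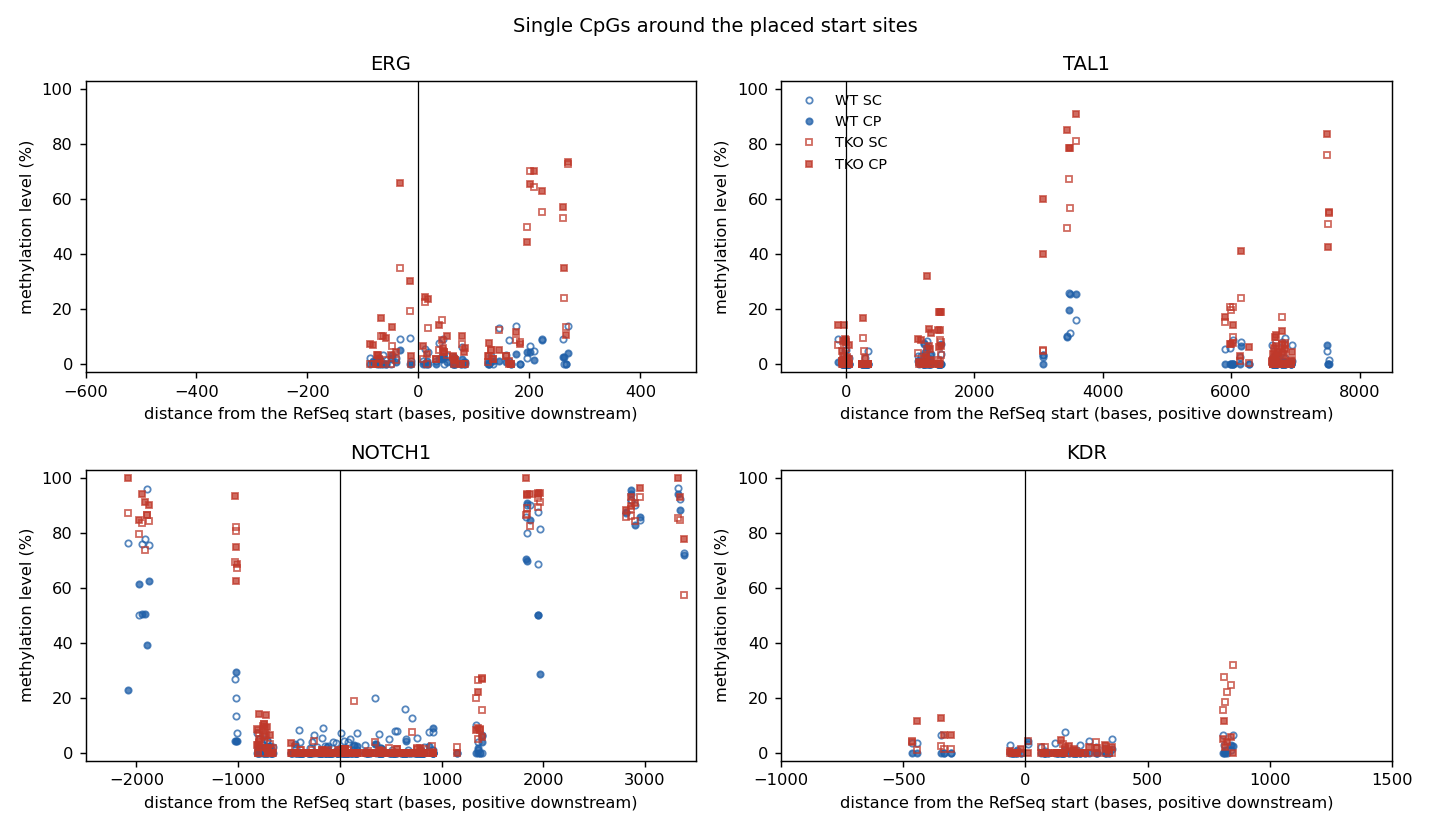
Methylation level (%, y axis) of each CpG near the placed RefSeq start (vertical line) of ERG, TAL1, NOTCH1 and KDR, by distance in bases (x axis, positive downstream), in WT SC, WT CP, TKO SC and TKO CP. In the promoter windows no CpG exceeds 6.15% in KDR or 9.09% in NOTCH1 in any of the 7 libraries, while single CpGs reach 14.3% in TAL1 and 65.96% in ERG in TKO CP.

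FLT1, a VEGF receptor that also acts as a decoy, had 5 tiles and none was called. Its 2 tiles at the start, chr13:29068001-29070000, with 63 and 72 CpGs, were at most 1.38% in every library. A run of 4 CpGs at 29070491 to 29070596, 1226 to 1331 bases upstream, was at 59.6%, 68.1%, 34.7% and 40% in WT and at 66.5%, 81.7% and 80.9% in TKO. The WT CP and WT CM values were the lowest of the 7. FLT1 CpGs called higher in TKO numbered 0, 0 and 6 of 181 at SC, CME and CP. At CP that is 3.31%, beside 10.3% of all CpGs, with 5.77% at SC and 5.90% at CME.

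RUNX1 had 9 tiles and none was called. The 4 tiles from chr21:36260001 to 36264000, which include the placed start at 36260996, were at most 3.04% in every library. None of the 9 tiles lies beyond base 36264000, although the RUNX1 span runs to base 36425000. The level at any other RUNX1 start in that part is therefore not described. The tile at 36258001 was at 5.75%, 4.38%, 0.8696% and 0.826% in WT and at 12.8%, 10.1% and 7.27% in TKO, so TKO lay above WT at each stage, under the size for a call. CDH5, the junction protein, had 2 tiles, at chr16:66420001-66421000 with 69.7% to 75.1% and at chr16:66436001-66437000 with 90.3% to 94.9% over the 7 libraries, and neither was called. Its span held 72 CpGs read in any library. The 2 tiles, with 34 of its 40 CpGs, begin 22 and 38 kb into the span. The start of CDH5 was not placed, so the level of its promoter is not described.

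Over all 2112 CpGs, 78 were called higher and 5 lower in TKO at SC, 83 and 8 at CME, and 151 and 1 at CP. The shares called higher were 3.69%, 3.93% and 7.15%, below the 5.77%, 5.90% and 10.3% of all CpGs. NOTCH1, with 842 of the 2112 CpGs, held 8, 7 and 42 of those called higher. This shortfall therefore leans on that gene and need not hold for the others. SOX18 went the other way, with 47, 49 and 65 called higher of its 210. The shortfall was not tested. The shares called lower over all CpGs were 0.261%, 0.310% and 0.120%. From WT CME to WT CP, 52 were called lower and 3 higher, against 2.15% and 0.0795% of all CpGs. From WT SC to WT CM, 28 were lower and 1 higher, against 1.63% and 0.196%. Of the 52, 28 lay in NOTCH1 and 8 in SOX18.

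A list of 40 other genes of the blood and endothelial programme, also chosen with earlier results known, was followed at promoters. Of these, 15 had a window that could be placed and tested, with 19 windows. At SC, CME and CP alike, 2 of the 19 windows were called higher in TKO, beside 3.31%, 3.21% and 4.58% of all windows. Of the 19, 16 were under 20% in all 7 libraries, beside 91.7% of all windows. The called windows belong to LYL1, a close relative of TAL1, and to PGF, a ligand of FLT1. LYL1 had 7.57%, 7.53%, 1.297% and 0.851% in WT and 61%, 59.5% and 56.4% in TKO. PGF had 9.88%, 9.93%, 3.06% and 1.96% in WT and 40.2%, 39.97% and 34.7% in TKO, and another PGF window that overlaps it was at 19.2%, 25.7% and 22.96% in TKO without being called. In both called windows all TKO libraries lay above all WT libraries. A GATA2 window, of a blood stem cell factor, was at 2.401%, 3.81%, 3.08% and 4.88% in WT and 9.24%, 9.81% and 14.9% in TKO, and an NR2F2 window, of a venous fate factor, at 3.01%, 3.63%, 0.894% and 0.879% in WT and 8.61%, 13.7% and 6.96% in TKO. Neither was called, and in both all TKO libraries lay above all WT libraries. The remaining windows of GATA2 and NR2F2 and those of DLL4, GFI1 and HHEX were at most 6.19% in every library. The windows of EFNB2, ELK3, EPHB4, HEY2, KIT, MYB, FOXO1 and VEGFC, which cover ephrin signalling, transcription factors, the KIT receptor and a lymphatic growth factor, were at most 1.44% in every library.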

How the data were processed

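Genomic DNA of 7 HUES8 libraries was profiled, with alignment and methylation calls made by a core facility, per the labels' protocols. The build was hg19, per the submitters' processing notes. The aligner and caller were not given in the sources used here. Each deposited file lists a read count (coverage) per cytosine, with a lowest count of 10 and no sign of scaling by the authors. It also lists the percent of reads called C and T, as deposited by the authors, per the file headers. Coverage multiplied by these percentages gave whole reads.

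For each CpG the reads of the plus and minus strand were added, and the level is methylated reads over methylated plus unmethylated reads. Tiles of 1 kb with 5 or more CpGs, each with at least 10 reads in every library, were compared for 9 pairs of libraries with Fisher's exact test (two-sided), with Benjamini-Hochberg adjustment over 85087 tiles. A call needed an adjusted p under 0.01 and 25 points. A change of the genotype difference between SC and CP was tested with a z test on the reads. TKO and WT were also compared with limma 3.58.1 in R 4.3.3 on arcsine square root levels. The error in that fit is the spread left after genotype and stage, drawn for each tile towards that of all tiles, and stages are not replicates. Intervals are 95% Wilson intervals. The Fisher and z tests and the intervals cover counting error only. That error can be larger than they state, because 1 read can cover several CpGs and PCR can copy a molecule. The tests were checked on simulated reads drawn independently of each other, which cannot show that larger error. Scripts ran in Python 3.11.15 with numpy 2.4.6, pandas 2.3.3 and scipy 1.17.1, and with numba 0.67.0 for the exact tests and matplotlib 3.10.9 for the plots.

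The 10 genes and the list of 40 were chosen with earlier results of these data known. The named tiles are, per gene, the called tile with the largest difference in each genotype comparison and between WT CM and WT SC, and the tile with the start. Other tiles were named after their values were seen. Single-CpG tests (over 1734462 CpGs), runs of 2 or more successive called CpGs with gaps of up to 500 bases, and promoter windows were added after the tile results were seen. Runs are bounded by the calls, so their levels are descriptions. The list of 40 was to be followed by tiles over gene spans, and no hg19 annotation was used here, so promoter windows took their place. Of 35116 RefSeq promoters (GRCh38.p14), 19809 had 10 or more CpGs. Of these, 11178 were placed on the chromosome by CpG spacing, with 10 or more matched CpGs, no measured CpG outside the sequence's own, and a best match above the next best. Of the placed promoters, 99.9% had a shift between builds near the median of the closest placed promoters, itself among them. This check is coarse, and a window misplaced by several kb would pass it. In all, 10758 windows were tested. The first placement rule was stricter and placed 5911. It was relaxed after the number and the names of placed genes were seen. Of the 10 genes, 7 have an entry in the promoter table and 6 were placed. Exons and introns were not used here.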

Additional observations from a re-analysis of the deposited data

Results flagged for a closer look

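In 5 of the 90 tiles (5.67% of all tiles) the genotype difference itself was called as higher at CP than at SC by the z test on reads. TKO minus WT at CP, minus the same difference at SC, was 28.4 points in the LMO2 tile at base 33914001 and 32.9 points in the KDR tile at 55946001. In NOTCH1 it was 50.1 points in the tile at 139421001, 31.1 points in that at 139434001 and 35.5 points in that at 139442001. The WT SC and WT CP libraries differ in the BS suffix and in the mitochondrial share of C, which cannot be told apart from stage with 1 library per group.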

How the results depend on the processing

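The tile counts below are given in the order TKO higher at SC, CME and CP, then WT lower from CME to CP and from SC to CM, then the genotype difference higher at CP than at SC (3, 3, 9, 4, 4 and 5 as reported). With 20 reads per CpG they were 1, 1, 3, 2, 1 and 2, and with 10 or more CpGs per tile 1, 1, 3, 1, 1 and 1. With 3 or more CpGs the first 2 were 5 each and the last 8. At 40 points, TKO was higher at CP in 4, WT was lower in 1 and 2, and the genotype difference was higher in 1. With the plus strand alone, 1 tile was higher in TKO at CME, 2 and 2 were lower in WT, and the genotype difference was higher in 2 and lower in 1. With the minus strand alone, 1, 1 and 5 were higher in TKO. By adjusted p alone, whatever the size, tiles higher and lower in TKO numbered 14 and 25 at SC, 16 and 32 at CME, and 45 and 2 at CP. On that rule WT counts were 3 higher at CME than SC, 1 higher and 40 lower at CP than CME, 2 higher at CM than CP, and 1 higher and 34 lower at CM than SC. TKO counts were 9 and 4 at CME against SC and 26 and 4 at CP against CME, and the genotype difference was higher at CP in 44 and lower in 1. For single CpGs at 40 points, TKO was lower in 1, 3 and 0 at SC, CME and CP and higher in 55 at CME, and WT was lower in 28 at CP against CME, and higher in 0 and lower in 18 at CM against SC. With 20 reads per CpG, TKO was lower in 3 at SC and 4 at CME. Another 194 alternatives kept their count within 1.5 times. Among them were tiles shifted by 500 bases, correction for the mitochondrial share of C, the limma fit and the stricter promoter placement. Under that placement the windows called in LYL1 and PGF were the same. Most tile counts were reported as 0, and each 0 that stayed 0 is among the 194. That total therefore says little about the counts above 0. For gene spans, 42 of 540 alternatives had the other sign, all from reported differences of at most 5.81 points, and 131 moved beyond the counting interval. The cause of these changes was not tested. The called tiles of TAL1, ETV2, LMO2 and KDR have 5 or 6 CpGs and drop out of the tiles of 10 or more by construction. No paired analysis was possible because each group has 1 library, so replicate numbers pair nothing beyond the stages, which the limma fit takes as a term. Levels near 1% to 3% in WT SC and WT CME are of the order of the mitochondrial share of C in those libraries, and the part of unconverted cytosine in them was not tested.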
